A study of Mus musculus with 2 samples.

Results

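Chromatin accessibility was examined at Nr3c1, which encodes the glucocorticoid receptor, and at 7 known target genes of the receptor, in mouse gastrocnemius, the large calf muscle. The targets were Fkbp5, Tsc22d3, Zbtb16, Sgk1, Ddit4, Pik3r1 and Glul. The 8 genes were taken by name, and all 8 were found among the 21938 protein-coding genes of GENCODE release M21 on build mm10. DNase-seq peaks and footprints were collected for each gene in the gene body plus 10 kb on either side, called its window. The 8 windows together held 85 of the 49160 peaks that were shared by both libraries of the study.

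The glucocorticoid receptor is a nuclear receptor that is held by chaperones in the cytoplasm and moves into the nucleus once it has bound a glucocorticoid hormone. There it binds glucocorticoid response elements (GREs), which are imperfect palindromes of the half-site AGAACA, often at sites that are already accessible. In skeletal muscle glucocorticoids are known for promoting protein breakdown and restraining growth signalling, and several of the targets act as feedback on the receptor or on insulin and TOR signalling.

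In DNase-seq accessible chromatin is cut by the enzyme DNase I, and peaks mark stretches with many cut ends. The study held 1 group of 2 libraries, replicate 1 and replicate 2, from gastrocnemius of female B6CASTF1/J mice aged 2 months. The labels name no treatment, and they give the libraries separate biosamples but the same donor identifier, so whether the libraries came from separate animals is not settled. The mice are F1 hybrids of unlike parental genomes, and every position and sequence given here is that of the reference build, with alleles not separated. With no other group, nothing was compared between conditions and no p-value was computed.

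The libraries differed strongly in the number of peaks called. Replicate 1 had 66984 peaks and replicate 2 had 258342, which is 3.86 times as many, and sequencing depth is unknown. Ranks are therefore given within each list by the authors' deposited signal, whose scale is not stated, as a position and as a top percentage of the list. The longer list holds many weak peaks, which lowers the top percentage of a strong peak in replicate 2. Skeletal muscle markers had a promoter peak in both libraries at 7 of 8 genes, all except Myh4. Endothelial markers had one at 3 of 4 genes and fibroblast markers at 3 of 3, against 0 of 4 for liver, 0 of 3 for heart, 0 of 4 for adipocytes and 0 of 3 for macrophages. The same call was made for 60.2% of all protein-coding genes, so lists this short do not tell which cell types contributed. In replicate 2 only, a promoter peak was called at all macrophage markers and at all adipocyte markers except Adipoq. The same held for Apoa1 of liver and Pecam1 of endothelium, and these peaks had ranks from 40502 to 103938. Heart markers had none in either library. In whole tissue, a site open in fewer cells and a site less open in each cell cannot be told apart. The part of endothelial, fibroblast, macrophage or adipocyte nuclei in the values below was not tested.

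Every member had an accessible promoter. A peak reached within 1 kb of an annotated start in each library at 8 of 8 members, a call made for 60.2% of all protein-coding genes. Members had a median of 6.5 annotated starts against 3 over all protein-coding genes, and more starts give more chances for the call. With only the 5′ end of each gene record in place of all starts, 6 of 8 members kept it. The 2 that lost it were Nr3c1 and Sgk1, whose gene records begin at distal starts. The share of all protein-coding genes was not computed for this narrower call. The windows held 114 peaks of replicate 1 and 395 of replicate 2. Merging gave 85 shared peaks, of which 31 had their midpoint within 1 kb of a start of the same gene, 37 lay in introns, 3 in exons, 6 in the upstream flank and 8 in the downstream flank.

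Peak numbers differed widely between the members. Zbtb16 had 28 shared peaks and Fkbp5 had 19, while Sgk1 had 10, Nr3c1 and Tsc22d3 had 7 each, Ddit4 and Pik3r1 had 5 each and Glul had 4. Windows ranged from 22.2 kb at Ddit4 to 202 kb at Zbtb16, so density gives another order. Ddit4 was densest with 2.26 shared peaks per 10 kb, followed by Zbtb16 with 1.39, Fkbp5 with 1.37 and Glul with 1.34. Tsc22d3 had 0.863, Sgk1 0.726, Nr3c1 0.543 and Pik3r1 0.464 per 10 kb. The median member had 1.10 shared peaks per 10 kb and the median protein-coding gene 0.325, and all 8 members lay above the latter. More than 0 shared peaks were present in the windows of 71.5% of protein-coding genes.

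**Figure D1:**
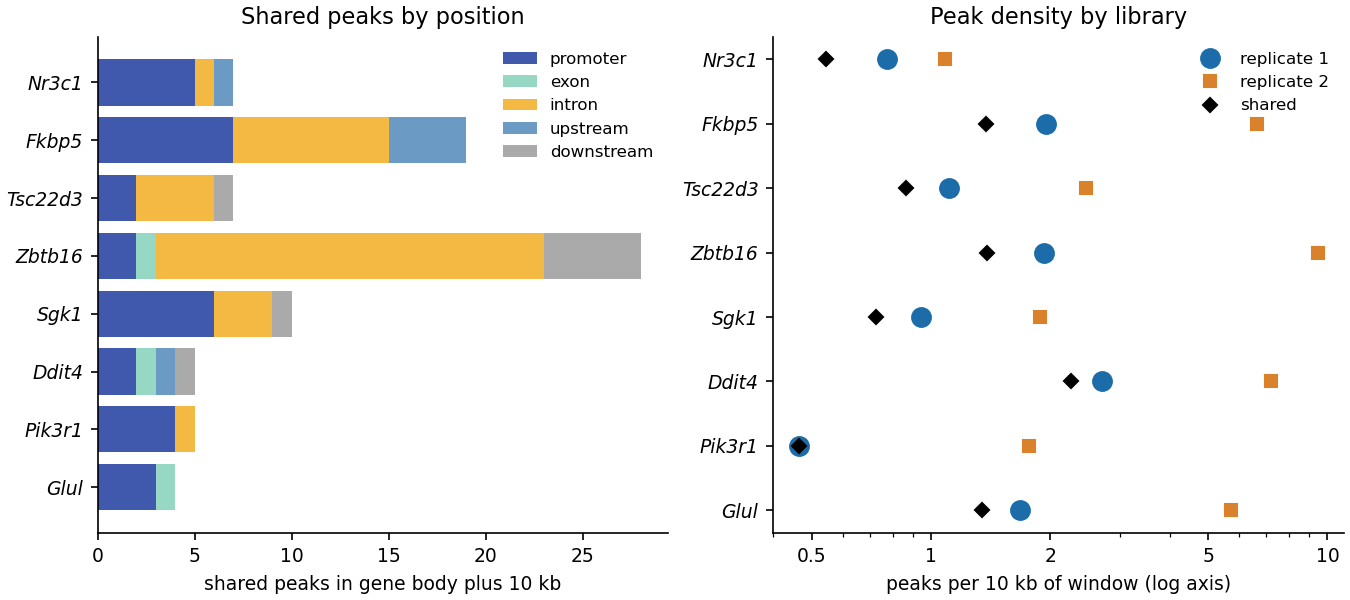
The left panel shows stacked counts of shared peaks by position for each member, and the right panel shows peaks per 10 kb of window in replicate 1, in replicate 2 and shared, on a log axis. Zbtb16 has the longest bar with 28 shared peaks, mostly intronic, and Ddit4 has the highest shared density with 2.26 per 10 kb. At Pik3r1 the replicate 1 and shared values coincide at 0.464.

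The annotated starts of the 8 genes fell into 28 groups, with starts up to 1 kb apart joined. Of these groups, 16 had a peak within 1 kb in both libraries, 2 in replicate 1 only, 3 in replicate 2 only and 7 in neither. Alternative starts of the same gene thus differed in whether a peak was called. The order of the members by their strongest promoter peak was the same in both libraries, except that Sgk1 and Pik3r1 changed places. Ddit4 ranked 100th and 124th, Glul 636th and 675th, and Fkbp5 1066th and 693rd in replicates 1 and 2. At the other end Tsc22d3 ranked 6463rd and 9335th.

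**Figure D2:**
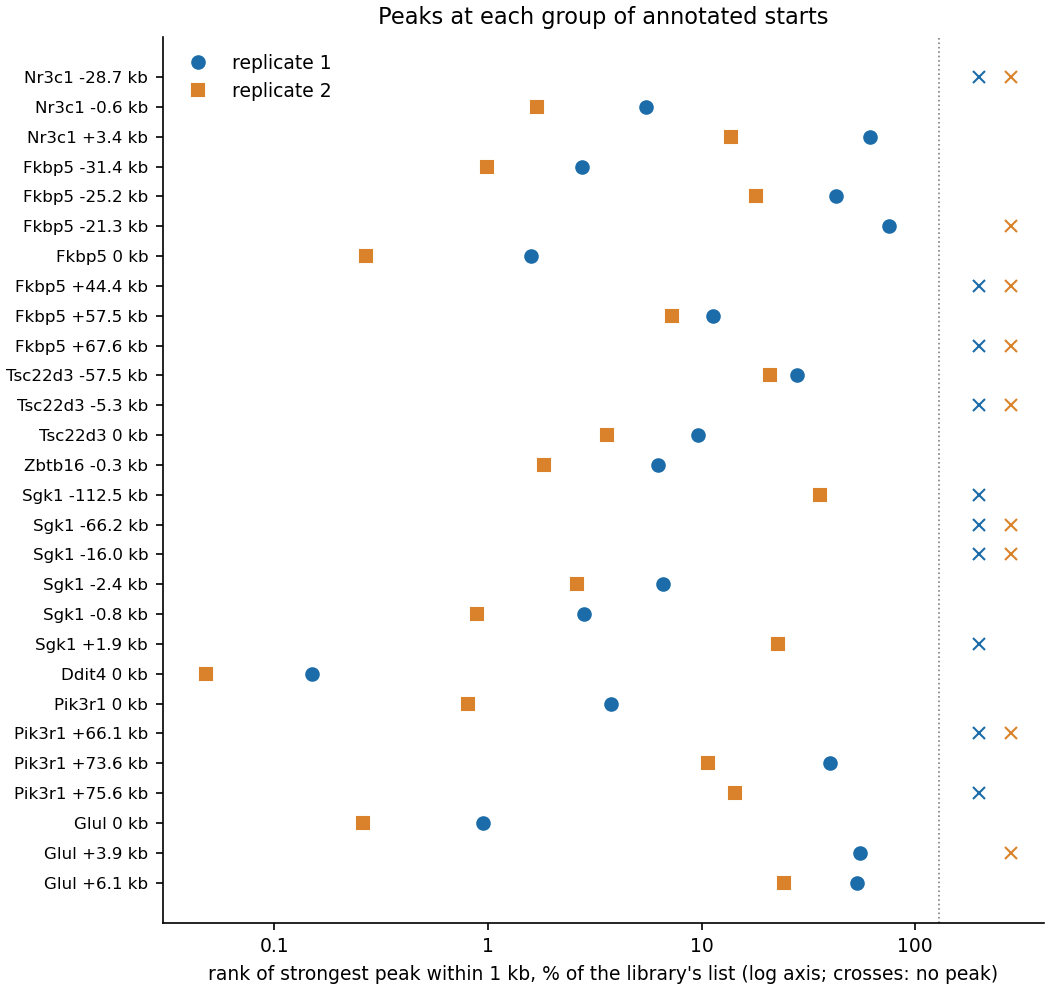
Each row is a group of annotated starts, labelled by its distance from the start of the gene's reference transcript, and the log axis gives the rank of the strongest peak within 1 kb as a percentage of the library's list. The strongest peak can be a different one in each library, and a peak can count for neighbouring groups. Crosses mark groups without a peak. Ddit4 lies farthest to the left, and 7 groups have crosses for both libraries.

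The receptor gene itself, Nr3c1 (ENSMUSG00000024431.15, chromosome 18, 39410545 to 39519421, minus strand), had the sixth-ranked promoter of the 8 members in both libraries, ahead of Zbtb16 and Tsc22d3. Its strongest peak had a signal of 4.08 in replicate 1 (rank 3685, top 5.50%) and 8.33 in replicate 2 (rank 4376, top 1.69%). This peak lay 18 bp from the nearest of 6 starts that sit close together, and 5 of the 7 shared peaks of the gene were promoter peaks. The next strongest, a broad merged peak of 1600 bp over the same group of starts, had signals of 2.70 and 7.52. The distal start 28.7 kb farther upstream had no peak in either library. Beyond the promoter only an intron 2 peak (top 61.7% and 11.5%) and a flank peak 5.78 kb upstream (top 75.2% and 23.1%) were shared, both weak. Replicate 2 added little here, with 14 peaks against 10 in replicate 1, a ratio of 1.40.

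Fkbp5 (ENSMUSG00000024222.17, chromosome 17, 28399094 to 28517527, minus strand) encodes FKBP51, a co-chaperone that lowers the hormone affinity of the receptor and is induced by it. Replicate 1 had 27 peaks and replicate 2 had 92 in its window, of which 19 were shared: 7 promoter, 8 intronic and 4 upstream. The peak at the start of Fkbp5-201 had a signal of 7.27 in replicate 1 (rank 1066, top 1.59%) and 23.1 in replicate 2 (rank 693, top 0.268%). A more distal group of starts, 31.4 kb upstream, carried a strong peak too, with signals of 5.84 (top 2.74%) and 11.8 (top 0.985%). In contrast, the start groups 44.4 kb and 67.6 kb downstream of the Fkbp5-201 start had no peak in either library. The group between them, at 57.5 kb, had signals of 2.59 (top 11.3%) and 2.43 (top 7.26%).

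Most of the other strong peaks of Fkbp5 lay near the distal starts. An intronic peak at chr17:28512761-28513080 ranked in the top 2.42% and 2.87%. In the upstream flank, a peak 5.69 kb before the distal starts had signals of 4.78 and 6.44 (top 4.14% and 2.38%), and another at 5.19 kb had signals of 3.80 and 4.66. The first lay 68 bp from a start of Gm20109 and the other 1 bp from a start of E230001N04Rik, both long non-coding RNA genes, so these peaks are also promoter peaks of neighbouring genes. Of the 19 shared peaks of Fkbp5, 4 held a GRE match, described with the other matches below, and the strongest of these is the peak at the distal starts. Its sequence is shown because it combines a strong rank in both libraries with a GRE match, which stands in capitals. Like all sequences here it is the RefSeq reference of mm10, written 5′ to 3′ on the strand of the gene.
Fkbp5 peak at the upstream start (chr17:28518076-28518275, minus strand): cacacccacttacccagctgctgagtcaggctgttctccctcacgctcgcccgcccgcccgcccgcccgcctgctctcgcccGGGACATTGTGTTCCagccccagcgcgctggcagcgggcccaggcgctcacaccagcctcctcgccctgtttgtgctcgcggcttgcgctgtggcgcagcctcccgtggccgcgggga

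Zbtb16 (ENSMUSG00000066687.5, chromosome 9, 48654297 to 48836222, minus strand) encodes PLZF, a zinc finger transcriptional repressor that is strongly glucocorticoid-inducible in many cell types. It had the most peaks of the members, 39 in replicate 1 and 191 in replicate 2, with 28 shared. The promoter was not the strongest site. Its peak had signals of 3.77 (rank 4209, top 6.28%) and 7.85 (rank 4737, top 1.83%). An intron 3 peak 98.3 kb downstream of the start had signals of 6.25 (rank 1587, top 2.37%) and 11.5 (rank 2660, top 1.03%), and so outranked the promoter in both libraries. A neighbouring intron 3 peak, 95.6 kb from the start, also outranked it, with signals of 4.40 (top 4.80%) and 8.10 (top 1.76%).

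The 20 intronic peaks of Zbtb16 were spread over intron 2 with 8, intron 3 with 7 and intron 4 with 5. The downstream flank held another 5 shared peaks. Of the 160 peaks called in replicate 2 only, 136 were intronic. Segments where the deposited false discovery rate of the cut rate was at most 0.05 covered 11.6 kb of the window in replicate 1 and 66.4 kb in replicate 2, or 5.74% and 32.9% of it. That ratio of 5.72 was above the genome-wide ratio of 3.23 between the libraries. Every other member had a ratio below 3.23, from 1.27 at Nr3c1, with 3.71 kb and 4.70 kb, to 2.61 at Sgk1. The strong intron 3 peak is printed with its GRE match in capitals, since it was the strongest shared peak of the gene.
Zbtb16 intron 3 peak (chr9:48737586-48737785, minus strand): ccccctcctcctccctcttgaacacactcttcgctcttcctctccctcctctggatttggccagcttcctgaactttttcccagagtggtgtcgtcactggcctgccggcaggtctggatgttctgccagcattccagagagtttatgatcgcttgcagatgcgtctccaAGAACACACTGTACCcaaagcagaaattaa

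**Figure D3:**
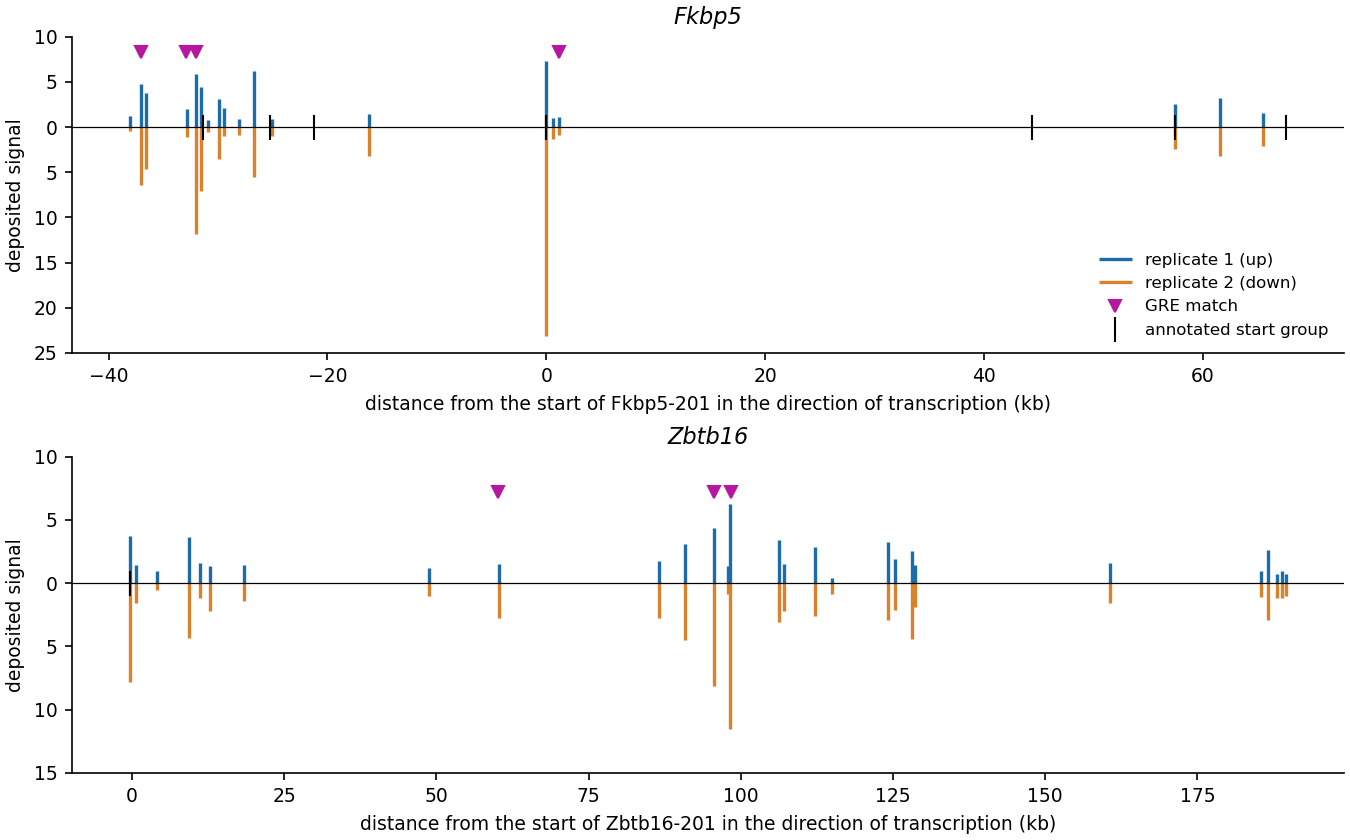
Shared peaks of Fkbp5 and Zbtb16 are drawn by distance from the start of the reference transcript in kb, with the deposited signal of replicate 1 upward and of replicate 2 downward. Triangles mark peaks with a GRE match and black ticks mark annotated start groups. At Fkbp5 3 of the 4 triangles stand near the distal starts, and at Zbtb16 2 of the 3 stand over the tall intron 3 peaks.

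Tsc22d3 (ENSMUSG00000031431.13, chromosome X, 140539528 to 140600659, minus strand) encodes GILZ, a leucine zipper protein that carries part of the anti-inflammatory action of glucocorticoids. It had 9 peaks in replicate 1, 20 in replicate 2 and 7 shared. The start of the short transcript Tsc22d3-201 had the strongest peak, with signals of 2.89 (rank 6463, top 9.65%) and 4.61 (rank 9335, top 3.61%), the lowest strongest-promoter ranks among the members. The start of the long transcript, 57.5 kb upstream, had no shared peak centred within 1 kb. The nearest shared peak was centred 1.24 kb inside the gene, with signals of 1.23 and 2.18, and closer to the start lay only peaks of single libraries, with signals of 0.691 and 0.662 in replicate 1 and 0.874 in replicate 2. The start group between the short and long starts had no peak. The strongest shared peak outside the promoters by mean rank lay in an intron 15.1 kb upstream of the short start, with signals of 1.56 (top 21.2%) and 2.77 (top 6.32%). Its sequence is given below, and capitals mark bases that lie in footprints of both libraries.
Tsc22d3 intron peak (chrX:140558231-140558430, minus strand): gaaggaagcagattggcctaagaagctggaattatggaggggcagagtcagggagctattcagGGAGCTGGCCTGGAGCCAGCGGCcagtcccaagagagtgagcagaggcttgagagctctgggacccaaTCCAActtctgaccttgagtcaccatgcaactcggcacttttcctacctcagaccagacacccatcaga

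Sgk1 (ENSMUSG00000019970.15, chromosome 10, 21882184 to 21999903, plus strand) encodes a kinase of the AKT family that regulates ion transport and muscle mass. It had 13 peaks in replicate 1, 26 in replicate 2 and 10 shared, 6 of them at promoters. The strongest lay 100 bp from the start of Sgk1-201, with signals of 5.77 (rank 1896, top 2.83%) and 12.5 (rank 2307, top 0.893%). Another promoter peak, 699 bp upstream of its nearest start, had signals of 3.64 and 6.00. The start 2.44 kb upstream of Sgk1-201 had weaker peaks nearby, with signals of 1.25 and 2.35 at 757 bp and of 0.831 and 1.29 at 476 bp from it. The 3 start groups from 16.0 kb to 112 kb upstream had no peak in replicate 1, and the farthest had a weak one of 0.521 in replicate 2. An intron peak 41.9 kb upstream of the Sgk1-201 start differed between the libraries, with signals of 0.498 (top 69.5%) in replicate 1 and 3.13 (top 5.55%) in replicate 2. It is printed because it holds the only GRE match among the gene's shared peaks, in capitals.
Sgk1 intron peak (chr10:21952643-21952842, plus strand): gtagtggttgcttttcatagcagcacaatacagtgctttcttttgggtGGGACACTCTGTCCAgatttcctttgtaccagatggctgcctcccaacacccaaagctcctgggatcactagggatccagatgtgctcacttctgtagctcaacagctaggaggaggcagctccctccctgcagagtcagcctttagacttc

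Ddit4 (ENSMUSG00000020108.4, chromosome 10, 59949669 to 59951834, minus strand) encodes REDD1, which restrains TOR complex activity and is induced in muscle by glucocorticoids. It had the strongest promoter of the members, with a signal of 14.6 in replicate 1 (rank 100, top 0.149%) and 41.2 in replicate 2 (rank 124, top 0.0480%). Only 107 protein-coding genes in replicate 1 and 132 in replicate 2 had a better-ranked promoter peak. The window held 6 and 16 peaks, with 5 shared, among them a coding-exon peak with signals of 1.90 and 2.45 and an upstream peak 5.74 kb from the start with signals of 1.52 and 4.29. No GRE match was found in them. Of the 200 bp centred on the promoter peak, the part up to the base before the start is printed. Bases in footprints of both libraries are in capitals, which holds for 66 of the 176 bases printed.
Ddit4 promoter peak (chr10:59951835-59952010, minus strand): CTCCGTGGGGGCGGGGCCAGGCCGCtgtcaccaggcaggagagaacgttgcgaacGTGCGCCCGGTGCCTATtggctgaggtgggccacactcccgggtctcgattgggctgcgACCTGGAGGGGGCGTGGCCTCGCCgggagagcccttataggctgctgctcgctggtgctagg

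Pik3r1 (ENSMUSG00000041417.15, chromosome 13, 101680563 to 101768217, minus strand) encodes p85 alpha and its shorter forms, regulatory subunits of the PI3 kinase that relays insulin signals. It had 5 peaks in replicate 1, all of which overlapped replicate 2, and 19 in replicate 2. The long transcript's start had the strongest peak, with signals of 5.01 (rank 2522, top 3.77%) and 13.3 (rank 2076, top 0.804%). The internal starts of shorter transcripts were weak or without a peak. The group 73.6 kb downstream had signals of 0.907 and 1.66, the group at 75.6 kb had a peak in replicate 2 only, with 1.26, and the group at 66.1 kb had none. The single shared peak outside the promoters lay in intron 2, 29.2 kb downstream of the start, with signals of 1.13 (top 31.0%) and 2.82 (top 6.20%). Its sequence holds a match to the C/EBP letters of which 5 bases in replicate 1 and 7 in replicate 2 lay in footprints, and capitals mark bases in footprints of both libraries.
Pik3r1 intron 2 peak (chr13:101738886-101739085, minus strand): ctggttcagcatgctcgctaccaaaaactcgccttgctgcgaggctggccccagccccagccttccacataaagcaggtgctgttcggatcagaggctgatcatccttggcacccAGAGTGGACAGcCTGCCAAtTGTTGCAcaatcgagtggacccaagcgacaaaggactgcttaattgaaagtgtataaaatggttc

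Glul (ENSMUSG00000026473.15, chromosome 1, 153899944 to 153909723, plus strand) encodes glutamine synthetase, which muscle uses to export nitrogen and which glucocorticoids raise. It had 5 peaks in replicate 1, 17 in replicate 2 and 4 shared. Its promoter peak was the next strongest after Ddit4, with signals of 8.85 (rank 636, top 0.949%) and 23.4 (rank 675, top 0.261%). This peak lay 55 bp from the annotated start of the microRNA gene Mir8114. A peak 330 bp downstream of another start of the gene had signals of 2.22 and 3.19, and the remaining shared peaks, at a downstream start and in a coding exon, were under 1 in both libraries. Of the 200 bp centred on the promoter peak, the part up to the base before the start is shown, with capitals for footprints of both libraries.
Glul promoter peak (chr1:153899771-153899943, plus strand): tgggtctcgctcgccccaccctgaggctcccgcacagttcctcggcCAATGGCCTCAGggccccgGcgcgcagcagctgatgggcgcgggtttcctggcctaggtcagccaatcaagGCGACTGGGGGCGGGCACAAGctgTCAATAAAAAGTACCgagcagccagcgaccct

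**Figure D4:**
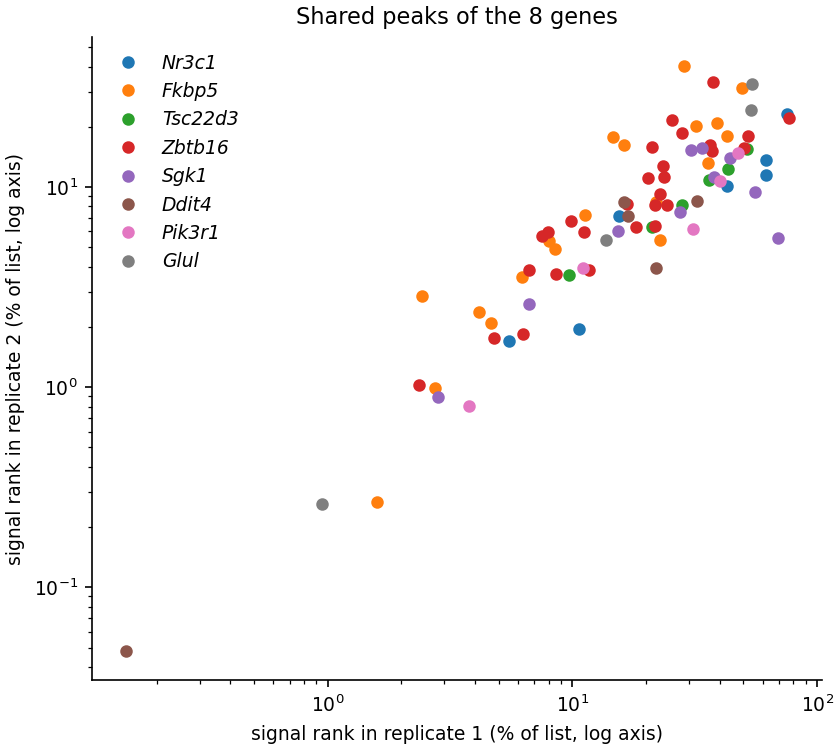
Each of the 85 shared peaks is a point, with its signal rank in replicate 1 on the horizontal axis and in replicate 2 on the vertical axis, both as percent of the list on log axes and coloured by gene. The Ddit4, Glul and Fkbp5 promoter peaks stand at the lower left. Some peaks ranked unlike in replicates 1 and 2, such as an Sgk1 intron peak at 69.5% and 5.55% and a Fkbp5 upstream peak at 28.6% and 40.2%.

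GRE matches were sought with a relaxed palindrome, GNACA and TGTNC separated by 3 free bases, which reads the same on both strands, in the 200 bp centred on each shared peak. Matches were present in 8 of the 85 shared peaks of the members, or 9.41% (95% exact interval 4.15 to 17.7, counting error only), against 0.944% of all 49160 shared peaks. Among the peaks over 1 kb from any annotated start 6 of 51 held a match, against 1.40% of all such peaks, and among the others 2 of 34, against 0.371%. Peaks of the same gene are not independent, and 7 of the 8 peaks belonged to Fkbp5 and Zbtb16. Fkbp5 had 4, Zbtb16 had 3 and Sgk1 had 1, while Nr3c1, Tsc22d3, Ddit4, Pik3r1 and Glul had 0. No member's shared peak held the full palindrome, AGAACA and TGTTCT separated by 3 free bases, which was present in 0.0203% of all shared peaks.

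Few genes in the genome had as many GRE matches in accessible sites. At least 1 shared peak with a match was present in the windows of 1.79% of protein-coding genes. Fkbp5 was the only one of 21938 with 4, and only Fkbp5, Zbtb16 and Tns1 had at least 3. Long windows and many shared peaks give more chances. Among the 2193 genes with windows of at least 130 kb the median was 0 and these same 3 genes were the only ones with at least 3. Genes were not matched on their number of shared peaks, which was 28 at Zbtb16 and 19 at Fkbp5. The near and far upstream matches of Fkbp5, printed below, lay outside the gene body in its 10 kb flank. These gene counts were not repeated with other flanks. The ranking of Zbtb16 rested on matches far from the peak midpoints, at 78, 92 and 90 bp. With 150 bp windows Zbtb16 had 0 and Fkbp5 still had 4, with 300 bp windows Zbtb16 had 5, the most of any gene, and over whole merged peaks Zbtb16 had 4, Fkbp5 had 5 and Tns1 had 6.

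The 8 matches are printed in the direction of transcription of their gene, in the frame of the full palindrome in capitals with 6 bases on either side.
Fkbp5 intron 1 match (chr17:28484946-28484972, minus strand): gggctcGGGACAGGGTGTACAgcgctt
Fkbp5 match at the upstream start (chr17:28518173-28518199, minus strand): tcgcccGGGACATTGTGTTCCagcccc
Fkbp5 near upstream match (chr17:28519025-28519051, minus strand): tctccaGGCACAGGGTGTCCCtagggg
Fkbp5 far upstream match (chr17:28523171-28523197, minus strand): ggcggcGGCACAGGATGTTCTttcgct
Zbtb16 first intron 3 match (chr9:48737595-48737621, minus strand): tctccaAGAACACACTGTACCcaaagc
Zbtb16 other intron 3 match (chr9:48740266-48740292, minus strand): cttgtgGGTACAGTATGTACAgtgtgt
Zbtb16 intron 2 match (chr9:48775818-48775844, minus strand): ctctagAGAACATTCTGTCCTctgcag
Sgk1 intron match (chr10:21952685-21952711, plus strand): ttgggtGGGACACTCTGTCCAgatttc

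Of the 12 fixed letters of the full palindrome, the Zbtb16 matches agreed at 10, 8 and 11 in the order printed, the Fkbp5 matches at 8, 9, 8 and 10, and the Sgk1 match at 8. Both Zbtb16 matches with 10 or more letters begin with an intact AGAACA half-site. By this other measure, at least 10 of 12 letters, 4 of the 85 member peaks passed, or 4.71% (1.30 to 11.6), against 1.48% of all shared peaks. At least 11 letters were found in 1, or 1.18% (0.0298 to 6.38), against 0.199% of all. Both background shares lie inside these intervals, so by this measure no excess beyond counting error was detectable. Zbtb16 then had 3 such peaks, a number that only Myom2 among all other genes reached. Fkbp5 had 1, and 590 of 21938 genes, itself among them, had at least as many. The match with 11 letters lay in a moderate intron 2 peak, 60.1 kb downstream of the start, with signals of 1.53 (top 21.7%) and 2.76 (top 6.36%).

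Footprints, short stretches within accessible DNA where cuts are depleted, did not touch these matches. In either library 0 of the 8 matches had a base in a deposited footprint, and with 8 matches a share of up to 36.9% remains within the 95% exact interval. Over all shared peaks 22.5% of 466 matches were touched in replicate 1 and 25.3% in replicate 2. Footprints as such were about as common at the members as elsewhere, since 66 of the 85 shared peaks (77.6%) had at least 1 in each library, against 79.6% of all shared peaks. They covered 9.92% of the bases of the members' shared peaks in replicate 1 and 11.3% in replicate 2, near the 10.5% and 12.1% of all shared peaks.

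The other motifs were searched on both strands in the same 200 bp. For each of them, the share over all shared peaks lay inside the exact interval of the member share. The half-site AGAACA, which overlaps the GRE palindrome, was present in 14 of 85 member peaks against 11.7% of all. The E-box CAGCTG, bound by myogenic factors among others, was present in 17 against 23.2%, the AP-1 letters TGANTCA in 7 against 8.08%, and the SP/KLF letters GGGCGG in 24 against 29%. The C/EBP letters TTGCNNAA were found in 3 against 7.59%, the FOX letters TGTTTAC in 1 against 2.15%, the MEF2 letters, CTA and TAG separated by 4 free bases, in 2 against 2.6%, and the NFI letters, TTGGC and GCCAA separated by 5 free bases, in 0 against 0.0651%. A match shows only that these letters are present.

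**Figure D5:**
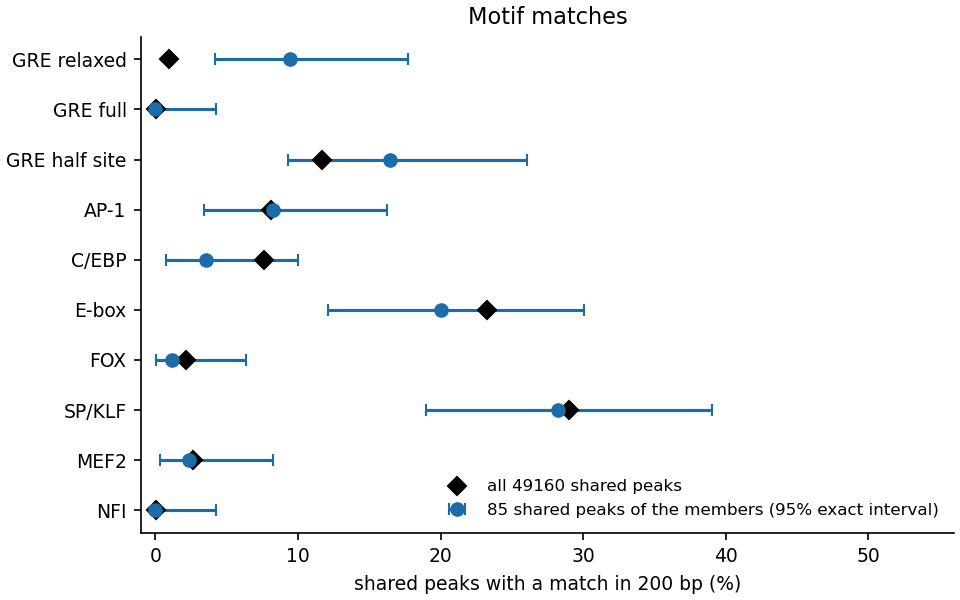
Points give the percentage of the members' 85 shared peaks with each motif in 200 bp, with 95% exact intervals, and diamonds give the percentage over all 49160 shared peaks. The relaxed GRE, at 9.41% against 0.944%, is the motif whose diamond lies outside the members' interval.

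Some matches of the other motifs did lie in footprints. In the members' peaks 18 of 46 SP/KLF matches were touched by a footprint in both libraries, against 32.3% of all such matches. Of the 3 C/EBP matches, the one in Pik3r1 intron 2 and one in Zbtb16 intron 2 were touched in both libraries, the latter at 7 of its bases in each, against 13.2% of all C/EBP matches. A half-site in Zbtb16 intron 2 at chr9:48826562-48826567 was covered at all 6 bases in both libraries. In all, 2 of 16 half-site matches were touched in both, against 3.63% of all such matches. For the E-box it was 3 of 19, against 10.5%, and for AP-1 0 of 7, against 8.15%. MEF2 had 0 of 3, against 10.7%, and FOX 0 of 1, against 2.80%.

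Overlap between the libraries at the members was close to that of the whole lists. Of the 114 replicate 1 peaks in the windows 90 overlapped a replicate 2 peak, or 78.9% (70.3 to 86.0), against 76.8% of all. Of the 395 replicate 2 peaks 94 overlapped a replicate 1 peak, or 23.8% (19.7 to 28.3), against 20.2% of all. Footprints overlapped in 119 of 280 in replicate 1, against 45.1% of all, and in 113 of 614 in replicate 2, against 20.2%. The 301 peaks called in replicate 2 only had a median rank at the top 47.7% of that list, and 16 of them (5.32%, 3.07 to 8.49) held a low false discovery rate segment in replicate 1. That share was not computed over all replicate 2 only peaks, so whether it is particular to the members is not known. The strongest of the 301 peaks lay 257 bp from a start of Glul, with a signal of 3.87 (top 4.40%), and 200 bp of it were in such segments of replicate 1. GRE matches were present in 4 of the 301, or 1.33% (0.363 to 3.37), against 0.431% of all replicate 2 only peaks, which lies inside the interval. There were 2 in Zbtb16, 1 in Fkbp5 and 1 in Sgk1.

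Promoter peaks of the members ranked higher than their other shared peaks. The median of the mean top percentage over both libraries was 10.7 for the 31 promoter peaks and 16.2 for the other 54, against 25.2 for all shared peaks of both kinds together. Within the top 5% of both lists stood 11 of the 85 peaks, 7 of them promoter peaks and the others the Fkbp5 and Zbtb16 intronic and upstream peaks given above. That is 12.9% (6.64 to 22.0), against 6.74% of all shared peaks, a share just inside the interval. Promoter peaks were also richer in G and C, with a median of 65.5% in 200 bp against 55.8% for the others. Neither the median rank nor the G and C content was computed for promoter and other peaks of all genes. Whether these differences are particular to the members is therefore not known.

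Genes that act before and beside the receptor had accessible promoters throughout. A promoter peak in both libraries was called for 60.2% of all protein-coding genes. Of 9 genes for hormone activation and inactivation, the mineralocorticoid receptor and the chaperones of the receptor, 9 had a promoter peak in both libraries, from Hsp90ab1 with 9 shared peaks to Stip1 with 1. Of 10 coregulator genes 10 had one, and the fewest shared peaks of that list were the 2 of Smarca4, the ATPase of a chromatin remodelling complex. None of these 19 genes had a shared peak with a GRE match, against 1.79% of all protein-coding genes. At that share few or none would be found in so short a list. Of 21 other glucocorticoid-responsive genes of muscle 20 had promoter peaks in each library, the exception being Mstn, which encodes myostatin and had 1 shared peak in its window. Per1, a clock gene with glucocorticoid response elements, had the most with 27. Of these 21 genes 7 had a GRE match in a shared peak, namely Bcl6, Cdkn1a, Dusp1, Klf15, Mt1, Mt2 and Per1, against 1.79% of all protein-coding genes. These rested on 8 different peaks, because the windows of Mt1 and Mt2 share 1.

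Glucocorticoid-responsive genes of liver mostly had no shared peak. A promoter peak in both libraries was called for 0 of 6 such genes, against 60.2% of all protein-coding genes. The windows of Igfbp1 and Tdo2 held 1 shared peak each, and those of Cps1, G6pc, Pck1 and Tat held 0. More than 0 were present at 71.5% of all protein-coding genes. Igfbp1 had 19 peaks in replicate 1 against 1 in replicate 2. Pck1 had 0 against 15 and Cps1 had 0 against 13, while G6pc and Tat had 0 in each library. None of the few shared peaks of the liver genes held a GRE match, against 0.944% of all shared peaks. The lists were chosen with earlier results of these libraries known, so these counts describe the genes and are not independent evidence.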

How the data were processed

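DNase-seq was measured in 2 libraries of 1 group, and all comparisons were made within that group. The build is mm10, per the labels. The authors called peaks and footprints separately per library from filtered alignments, per the README files that were deposited. The aligner, caller, versions and depth were not given in the sources used here. The authors' peak lists carry a deposited signal per peak, never negative and of unstated scale, which was used only to rank peaks within a list. The deposited p-value columns were a false discovery rate for cut-rate segments (at most 0.05) and a constant 0.01 for footprints. The longer of the 2 peak lists of each library was used.

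Peaks of both libraries that overlapped by at least 1 bp were merged where touching. A merged peak was placed by the mean midpoint of its strongest peak in each library, in the order own promoter (1 kb either side of any own start), exon, intron, upstream flank and downstream flank. Distances were measured from the longest principal transcript of each gene, unless another start is named. For Fkbp5 the transcript Fkbp5-201 was chosen after its peaks had been seen. Sequences and motif matches came from the RefSeq sequence of GRCm38.p6, in the direction of the gene. A printed peak sequence is the 200 bp centred on the peak, cut before the start for the promoters of Ddit4 and Glul. No sequence is printed for Nr3c1. Intervals of shares are exact (Clopper-Pearson, 95%) and reflect only counting error. The members and gene lists were chosen with earlier results of these data known. The text names all 8 members, the genes with most and fewest shared peaks of each further list, and for each member its strongest peaks and GRE peaks. A gene that this rule selects is not reported here. The promoter sequences of Ddit4 and Glul and the genes with GRE matches in the muscle list were added after values were seen. So were Myh4, Adipoq, Apoa1, Pecam1, Tns1, Myom2 and the other liver genes. Overlap and motif functions were tested on simulated data. Tables and intervals were made in Python 3.11.15 (pandas 2.3.3, numpy 2.4.6, scipy 1.17.1), sequence was read with pysam 0.24.0, and plots used matplotlib 3.10.9.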

Additional observations from a re-analysis of the deposited data

How the results depend on the processing

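The number of members with a promoter peak in both libraries was 8 in every alternative tried except the 5′ end of the gene record alone, where it was 6. The share over all protein-coding genes was not computed for these alternatives. With the shorter peak list of each library, the shared peaks numbered 53, the median was 0.644 per 10 kb, and 86.4% of replicate 1 peaks overlapped replicate 2. With equal numbers of strongest peaks, 60.5% of replicate 2 peaks overlapped replicate 1, so the low overlap of 23.8% depended on list length. Leaving out a library in turn, where all peaks of the other count, gave 114 to 395 peaks, a median of 1.39 to 4.09 per 10 kb, and 8 to 12 peaks with a GRE match. For the overlap, footprint and false discovery rate results no value is possible without both libraries. The count of 8 peaks with a GRE match was 0 with the full palindrome, 5 in 150 bp windows and 4 with at least 10 of 12 letters, and 8 to 11 in the other alternatives with both libraries. The last letter rule, whole merged peaks and leaving out a library were chosen for GRE matches after seeing the data. Among footprints in shared peaks only, 49.8% of replicate 1 and 45.3% of replicate 2 overlapped the other library. Of the members' peaks in replicate 2 only, 1.99% held a segment at a rate of at most 0.01 in replicate 1, and 2.66% held at least 50 bp of segment. These shares too were not computed over all such peaks. Over the members' own counts of shared peaks, 36 of 56 values in 7 alternatives were within 1.5 times the reported one. No paired analysis was possible because there is only 1 group. Unknown depth limits what can be said of peaks absent from replicate 1, and the cause of its shorter list was not tested.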
